A study of Mus musculus with 4 samples.

Results

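The cytosolic ribosomal protein genes encode the protein part of the ribosomes that translate nuclear mRNAs, and their mRNAs were measured here in mouse brown adipose tissue (BAT). Members were taken by symbol: Rpl or Rps followed by a number and an optional a, x, l, al or l1, together with Rplp0, Rplp1, Rplp2 and Rpsa, with pseudogenes named -ps and the Rps6k kinases left out. Of the 55387 gene entries in the series, 87 matched, and 83 had a mean above 1 FPKM in at least 1 genotype and were analysed. FPKM, fragments counted on a transcript divided by its length and by the size of the library, is a level per transcript length. The 83 comprised 51 large subunit and 32 small subunit genes, or 76 core genes, of which each encodes a standard ribosomal protein, and 7 paralogs, copies that resemble a core gene (Rpl3l, Rpl22l1, Rps27l, Rpl36al, Rpl39l, Rpl7l1 and Rps4l). The other 4 matches did not reach the limit. Rpl10l, Rps12l1 and Rpl32l were listed at 0 in every library and Rpl6l had 0.28 and 0.212 FPKM in Sox4f/f and 0.278 and 0.141 FPKM in Sox4-MKO.

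RNA sequencing was performed on BAT of 4 male littermates aged 15 weeks, 2 Sox4f/f mice and 2 labelled Sox4-MKO, with 1 library per mouse. All 4 mice carried floxed Sox4 alleles, and the Sox4-MKO mice also carried a Myf5-Cre transgene, which is active in the lineage of both brown fat and skeletal muscle. The labels call the control genotype WT. Sox4 is a transcription factor of the SoxC group, and the comparison asks how BAT gene expression differs when the gene is removed from Myf5-lineage cells.

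A ribosome joins a large and a small subunit, each built from ribosomal RNA and a set of proteins of which nearly all are present in a single copy. The mRNAs of these proteins are short and abundant, and most begin with a run of pyrimidines (a terminal oligopyrimidine, or TOP, motif) through which growth signals acting on mTOR set how well they are translated. A few ribosomal proteins have a paralog that replaces them in certain tissues, such as Rpl3l in heart and skeletal muscle.

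Promoter stretches of 5 members are shown to set the starts of 3 core genes beside those of the paralogs that differed most between the genotypes. Each runs 5′ to 3′ on the gene's strand from 60 bases before to 20 bases after a RefSeq start on GRCm38.p6, the same build as mm10, and capitals mark a pyrimidine tract, defined as a C followed by at least 6 bases that are C or T, within 20 bases of the start. Rplp2, Rpl28 and Rpl13a are core genes with lower values in the mice labelled Sox4-MKO, while Rpl22l1 and Rpl3l are the paralogs with higher values. They lie at chr7:141447591-141447670 (plus strand, Rplp2), chr7:4792905-4792984 (plus, Rpl28), chr7:45128726-45128805 (minus, Rpl13a), chr3:28805448-28805527 (plus, Rpl22l1) and chr17:24727766-24727845 (plus, Rpl3l).
Rplp2: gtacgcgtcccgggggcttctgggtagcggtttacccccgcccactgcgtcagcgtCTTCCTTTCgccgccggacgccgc
Rpl28: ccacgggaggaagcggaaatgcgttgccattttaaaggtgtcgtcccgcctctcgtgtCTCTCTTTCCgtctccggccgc
Rpl13a: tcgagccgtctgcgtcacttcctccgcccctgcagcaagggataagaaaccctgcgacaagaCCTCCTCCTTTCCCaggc
Rpl22l1: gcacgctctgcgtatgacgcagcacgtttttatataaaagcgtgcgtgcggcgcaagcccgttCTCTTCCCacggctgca
Rpl3l: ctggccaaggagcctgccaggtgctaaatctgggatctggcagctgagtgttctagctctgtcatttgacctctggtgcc

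The printed Rpl3l start held no tract. Neither did the listed starts of several core genes that are not printed, among them Rps2, Rplp0, Rpl10 and Rpl22. This letter match at the listed starts therefore did not set the core genes apart from Rpl3l. Whether those starts are the ones used in BAT was not tested. Rps2 was itself lower in the mice labelled Sox4-MKO, so the printed core genes do not stand for all lower ones. The promoter table gave 74 start windows (250 bases before to 50 after) for 62 of the 83 members. A pyrimidine tract near the start, searched on the gene's strand, was found in 36 of the 74 windows (48.6%), against 18.7% of all 32851 windows in the table. CCGGAAG, the core that ETS factors such as GABP bind, or its complement CTTCCGG, was found in 35.1% of member windows and 8.86% of all windows. AAGATGG, part of the motif of the factor YY1, or its complement CCATCTT, was found in 16.2% and 6.34%. The letters TATAAA, those of the TATA box, were searched on the gene's strand in the 50 bases before the start. They were in 1 member window (1.35%), that of Rpl22l1, and in 2.63% of all windows. These are matches of letters and not measured binding.

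Sox4 itself, the targeted gene, had 1.98 and 1.06 FPKM in Sox4f/f and 0.98 and 3.06 FPKM in the other genotype. The genotypes overlapped (limma, log2 fold change 0.20, SE 0.43, unadjusted p = 0.673). At levels this near the limit of 1 FPKM, with 2 mice per genotype, the RNA does not show whether the gene was deleted. The paper reports much less SOX4 protein in BAT of younger Sox4-MKO mice. The second genotype is named by its label throughout. Depth, estimated from the lowest values of single-transcript genes, lay at about 12200000 to 16300000 fragments per library, and summed FPKM ranged from 544564 to 578011 in Sox4f/f and from 472062 to 495145 in the mice labelled Sox4-MKO. Brown adipocyte markers were abundant in all 4 libraries, with Ucp1, the uncoupling protein of thermogenesis, at 1936 and 1814 FPKM in Sox4f/f and 733 and 1105 FPKM in the others. Markers of other cell types moved with genotype. All 12 listed skeletal muscle genes were tested and 10 had higher values at an unadjusted p under 0.05, with summed levels of 296 and 1005 FPKM in Sox4f/f and 18046 and 3305 FPKM in the mice labelled Sox4-MKO, as had 8 of 10 macrophage genes (221 and 323 against 455 and 447 FPKM summed) and 9 of 9 fibroblast and progenitor genes (405 and 434 against 904 and 836). Of 14 brown adipocyte genes 6 had lower values, with sums of 9499 and 9294 FPKM against 5295 and 6560 FPKM. None of the muscle, macrophage, fibroblast or brown adipocyte genes was listed at 0 in any library, whereas of the 12 lymphocyte genes 2 had a library at 0, 1 of them the B cell gene Ms4a1 in Sox4-MKO mouse 1. No endothelial (7) or blood (5) gene passed the same criterion in limma, and 1 of the 3 tested lymphocyte genes was higher. In bulk tissue, fewer cells of a type and less RNA per cell cannot be told apart. The part of these cell types in the ribosomal protein values was not tested.

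Together the 83 genes made up 5.31% and 5.19% of the summed FPKM in Sox4f/f mice 1 and 2 and 5.24% and 5.64% in mice 1 and 2 labelled Sox4-MKO, so the genotypes overlapped. Mitochondrially encoded RNA made up 21.6% and 17.7% of the summed FPKM in Sox4f/f and 9.29% and 13.6% in the other genotype. With those RNAs and Ucp1 left out of the total, the members' share was 6.79% and 6.33% in Sox4f/f and 5.78% and 6.55% in the mice labelled Sox4-MKO, and the ranges still overlapped. The plain sum of the 83 genes, in FPKM, was 30661 and 28259 in Sox4f/f against 25937 and 26639.

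Levels differed widely between members. Rplp1, an acidic protein of the ribosomal stalk, was highest with a mean of 1270 FPKM over the 4 libraries, followed by Rpl36 (969 FPKM) and Rps2 (759 FPKM). Within each library Rplp1 was the highest member and Rpl36 the next. Across libraries the values of Rpl36 and Rps2 overlapped, as did those of Rps2, Rps24 (746 FPKM) and Rps15 (733 FPKM). At the other end were 3 paralogs, Rpl7l1 (28.0 FPKM), Rpl3l (23.8 FPKM) and Rpl39l (2.30 FPKM). No analysed member was listed at 0 in any library. Ribosomal protein genes have many processed pseudogenes, and fragments can be shared with them: 319 entries named -ps reached at most 4.85 FPKM each, 236 of them were at 0 throughout, and their sum was 0.138% to 0.164% of the members' sum in each library.

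The core genes were mostly a little lower in the mice labelled Sox4-MKO, by about the same small amount in each subunit. The members' median kept this direction in every way of processing tried but 1. In that 1, the summed FPKM of all non-members was set equal (rescaled without the members). Under quantile normalization the members' median, -0.065, was not below the -0.083 of all tested genes. The median log2 fold change, mice labelled Sox4-MKO over Sox4f/f on the log2(FPKM + 1) scale, was -0.17 over the 76 core genes, with quartiles of -0.22 and -0.08, and -0.05 over all 12877 tested genes. It was -0.17 for the 46 core large subunit genes and -0.16 for the 30 core small subunit genes. Over all 83 members it was -0.16, and 68 had a log2 fold change under 0, which 56.0% of all tested genes had. Both mice labelled Sox4-MKO lay below both Sox4f/f libraries for 52 members, above them for 6 and across them for 25, where 29.6% of all tested genes lay below without overlap and 21.7% above. The 631 other tested genes with a mean above 100 FPKM, a set chosen after the values were seen, had a median of -0.20, and 316 of them lay below without overlap.

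**Figure D1:**
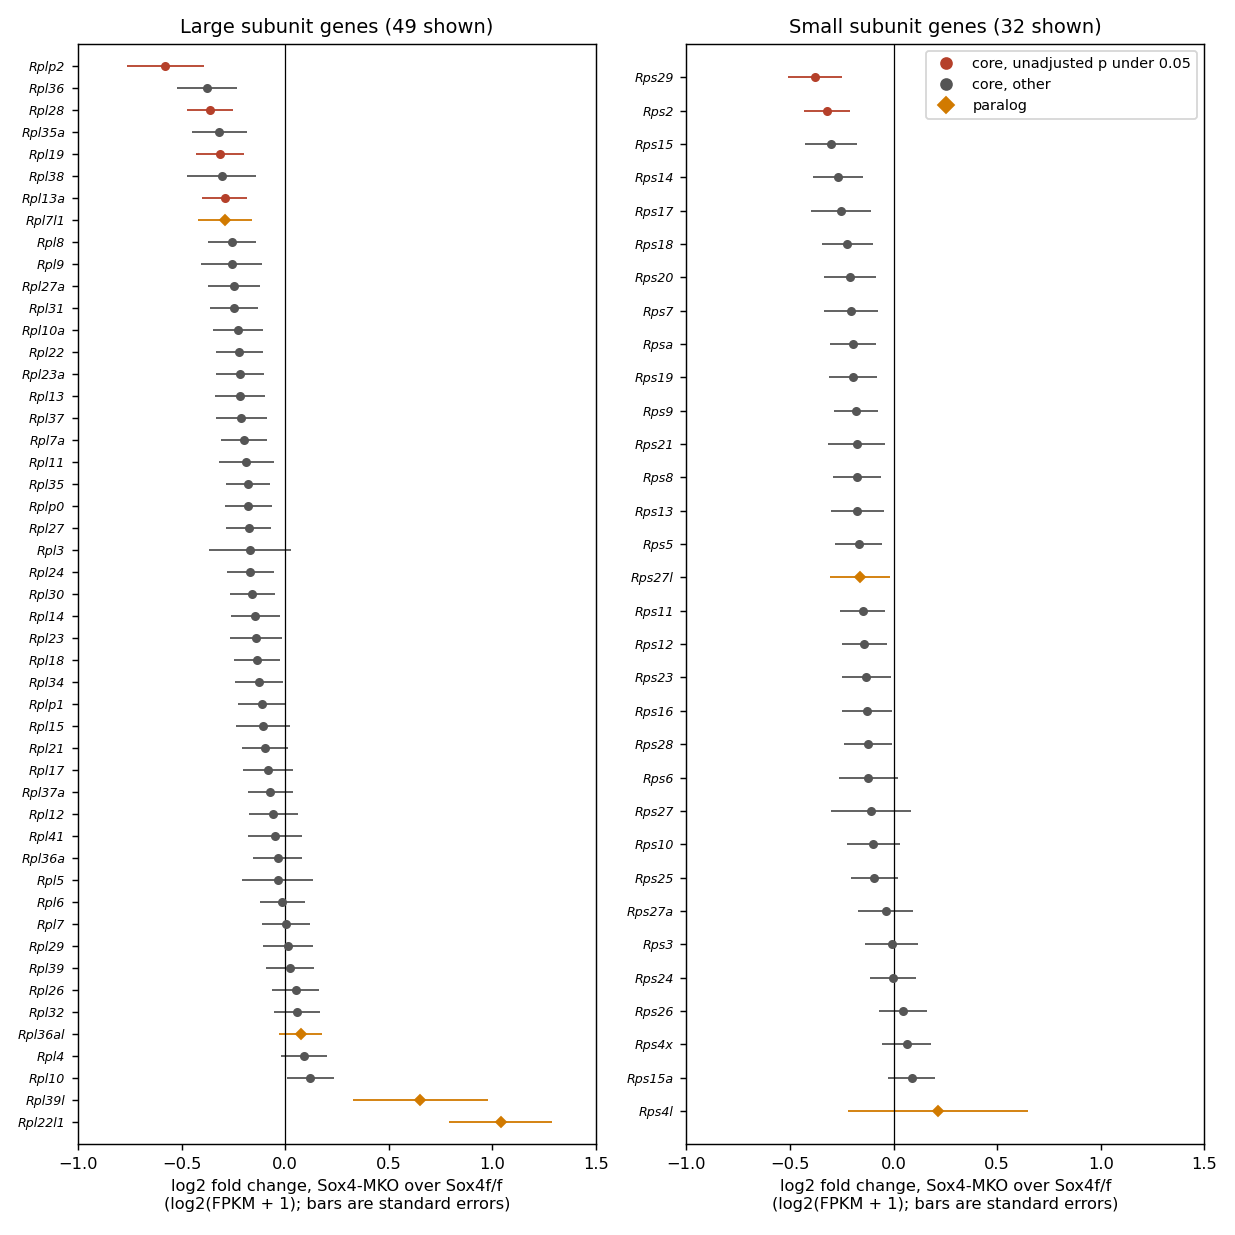
Log2 fold change of members, mice labelled Sox4-MKO over Sox4f/f, on the log2(FPKM + 1) scale with limma standard errors as bars (n = 2 mice per genotype), for 49 of the 51 large subunit genes at left and all 32 small subunit genes at right; Rpl3l, at 3.48, lies outside the axis and is among those not drawn. Most core genes sit slightly left of 0, Rplp2 lies furthest left at -0.58, and Rpl22l1 furthest right at 1.04; rescaled without the members, the median would lie at 0.06.

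With limma on all tested genes, 7 members had lower values at an unadjusted p under 0.05, the criterion used for calls here, where 8.28% of all tested genes did, and 2 had higher values, where 7.95% did. So the members' share of lower calls was close to that of all genes. It was below that of the 631 other tested genes with a mean above 100 FPKM, of which 178 were lower and 63 higher. The share called after Benjamini-Hochberg adjustment over all tested genes was 0.0%, the smallest adjusted p being 0.191 over all genes and 0.214 over the members. With 2 mice against 2 an exact permutation test allows 6 splits and cannot go below a two-sided p of 0.333, and the replicates are individual mice. All 7 lower calls were lost under quantile normalization, and without either Sox4f/f mouse, and 1, Rps29, was left with median ratio scaling. Without Sox4-MKO mouse 1, 2 of the 7 were still called (Rpl28 and Rpl13a), and without Sox4-MKO mouse 2, 3 were (Rplp2, Rpl28 and Rpl19). Lower calls over all tested genes numbered 1145 under quantile normalization and 860 with median ratio scaling, beside 1066 as reported. With the summed FPKM of all non-members set equal between libraries the members' median turned to 0.06, the median of all genes moving by 0.19.

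**Figure D2:**
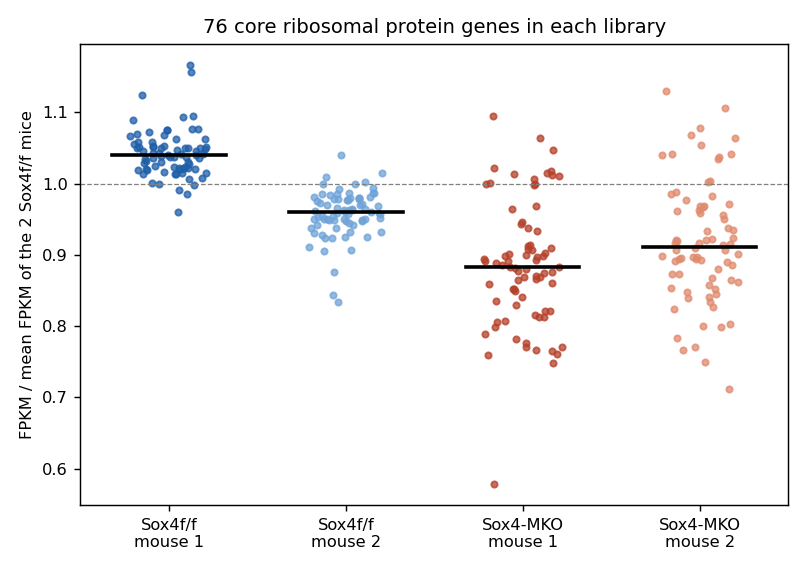
FPKM of each of the 76 core genes divided by its mean in the 2 Sox4f/f mice, one column of points per library and a bar at the median. The medians were 1.04 and 0.96 in Sox4f/f and 0.883 and 0.912 in the mice labelled Sox4-MKO.

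The order of the libraries was similar for many core genes. Sox4f/f mouse 1 held the highest value for 63 of the 76 core genes and Sox4-MKO mouse 1 the lowest for 43, with Sox4-MKO mouse 2 lowest for 20 and Sox4f/f mouse 2 for 12. The gap between the Sox4f/f medians, 1.04 and 0.96 of the Sox4f/f mean, was wider than the gap from Sox4f/f mouse 2 to Sox4-MKO mouse 2 (0.912). The log2 fold change was weakly related to transcript length across the 76 core genes (Pearson's r = 0.18) and to level (r = -0.25), values that describe genes sharing the same 4 libraries. The median length of the members, 711.5 bases, was well under the 2012.5 bases of all tested genes.

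The stalk proteins form a flexible arm of the large subunit that recruits the elongation factors. Rplp2 (chr7:141447370-141451585, plus strand, mm10) had 521 and 453 FPKM in Sox4f/f and 281 and 375 FPKM in the mice labelled Sox4-MKO. The groups did not overlap, and Sox4-MKO mouse 1 was lowest. The means were 487 ± 47.8 and 328 ± 66.3 FPKM (SD, n = 2 mice each), a log2 fold change of -0.58 (SE 0.19, limma unadjusted p = 0.0290, adjusted p = 0.259), the most negative among the members. Its partners moved less. Rplp1, with which Rplp2 pairs, had 1316 and 1323 FPKM against 1236 and 1205 FPKM (-0.11), a value that turned positive under quantile normalization (0.12) and when rescaled without the members. Rplp0, the stalk's base and a common reference gene for qPCR, had 419 and 402 FPKM against 348 and 377 FPKM (-0.18, and 0.04 when rescaled without the members). Rplp2 was 39.6% and 34.3% of Rplp1 in Sox4f/f and 22.8% and 31.1% in the mice labelled Sox4-MKO, so the ratio within each library was lower in both of the latter. Rplp2's log2 fold change stayed negative under every scaling and left-out library tried, between -0.79 and -0.36.

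Among the other large subunit genes, Rpl28 (chr7:4792874-4795066, plus strand) had 227 and 222 FPKM in Sox4f/f and 168 and 180 FPKM in the mice labelled Sox4-MKO. The replicates lay close together and the genotypes did not overlap, with a log2 fold change of -0.36 (SE 0.11, limma unadjusted p = 0.0239, adjusted p = 0.247). Rpl19, whose protein forms a bridge to the small subunit, had 463 and 451 against 350 and 384 FPKM (-0.32, limma unadjusted p = 0.0449). Rpl13a, whose protein is known for repressing translation of some inflammatory mRNAs when released from the ribosome, had 512 and 522 against 432 and 413 FPKM (-0.29, limma unadjusted p = 0.0485). In all, 5 of the 51 large subunit genes passed the criterion with lower values, a share close to the 8.28% of all tested genes. Rpl36, the second most abundant member, just missed it, with 1201 and 993 against 841 and 841 FPKM (-0.38, limma unadjusted p = 0.0510).

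Rpl5 and Rpl11, which with 5S rRNA bind Mdm2 and so link ribosome assembly to p53, did not pass the criterion. Rpl5 had 200 and 156 against 160 and 185 FPKM, with the genotypes overlapping (-0.04, positive under each rescaling tried), and Rpl11 had 296 and 255 against 231 and 250 FPKM (-0.19, and 0.03 when rescaled without the members). Rpl10a had 246 and 217 against 199 and 196 FPKM (-0.23). Rpl10, on the X chromosome, was the core gene with the most positive value, 528 and 520 FPKM in Sox4f/f and 548 and 592 FPKM in the mice labelled Sox4-MKO (0.12, limma unadjusted p = 0.342), and lay above without overlap. Rpl4 was the other core gene above without overlap, with 238 and 227 against 255 and 241 FPKM (0.09).

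In the small subunit, Rps29 (chr12:69157722-69159186, minus strand) had 848 and 734 FPKM in Sox4f/f and 618 and 593 FPKM in the mice labelled Sox4-MKO, a log2 fold change of -0.38 (SE 0.13, limma unadjusted p = 0.0364, adjusted p = 0.275). Rps2 (chr17:24718116-24721929, plus strand), which lies at the mRNA entry channel, had 858 and 830 against 674 and 675 FPKM (-0.32, SE 0.11, limma unadjusted p = 0.0371, adjusted p = 0.276). Both were lower in each mutant-labelled mouse than in each Sox4f/f mouse, and they were the small subunit genes past the criterion. Rps24 was almost equal throughout, with 746 and 746 against 757 and 735 FPKM. Rps6, whose phosphorylation reports mTOR activity, had 270 and 224 against 217 and 235 FPKM and overlapped (-0.12, and positive when rescaled without the members). Rps18, a common reference gene, had 513 and 457 against 402 and 427 FPKM (-0.22). Rpsa, also known as the laminin receptor, had 328 and 320 against 291 and 275 FPKM (-0.20, and 0.02 when rescaled without the members). Rps27a, made as a fusion with ubiquitin, had 230 and 209 against 200 and 228 FPKM and overlapped (-0.04, positive under each rescaling tried), as did Rps4x with 293 and 265 against 282 and 301 FPKM (0.06).

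Both members with higher values at an unadjusted p under 0.05 were paralogs. Rpl3l (chr17:24727820-24736143, plus strand), the striated muscle counterpart of Rpl3, had 0.97 and 4.95 FPKM in Sox4f/f and 69.6 and 19.6 FPKM in the mice labelled Sox4-MKO. About 14, 63, 920 and 330 fragments lay behind these values. The genotypes did not overlap, though each pair of replicates differed several fold. The means were 2.96 ± 2.82 and 44.6 ± 35.4 FPKM (SD, n = 2 mice each), a log2 fold change of 3.48 (SE 0.80, limma unadjusted p = 0.00878, adjusted p = 0.214), and it lay between 2.59 and 4.37 when each library was left out. Without Sox4f/f mouse 1 it was 2.68 and the call was lost (limma unadjusted p = 0.0585). Rpl3 had 237 and 169 against 167 and 190 FPKM and overlapped (-0.17, positive at 0.05 when rescaled without the members). Rpl3l was 0.41% and 2.93% of Rpl3 in Sox4f/f and 41.7% and 10.3% in the mice labelled Sox4-MKO.

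**Figure D3:**
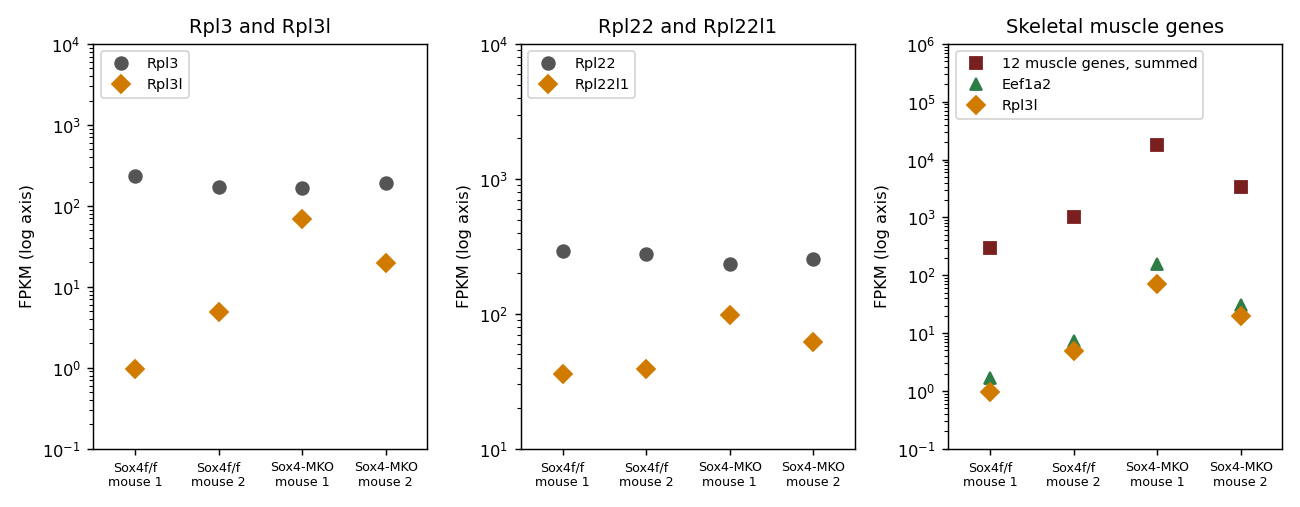
FPKM per library on log axes for Rpl3 with Rpl3l, for Rpl22 with Rpl22l1, and for Rpl3l beside Eef1a2 and the sum of 12 skeletal muscle genes. Rpl3l, Eef1a2 and the muscle sum were all lowest in Sox4f/f mouse 1 and highest in Sox4-MKO mouse 1, while Rpl22l1 ranged from 35.7 to 98.5 FPKM and Rpl22 from 234 to 290 FPKM.

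Rpl3l put the 4 libraries in the same order as the summed skeletal muscle genes did. It was 0.327%, 0.493%, 0.385% and 0.592% of the summed 12 muscle genes in Sox4f/f mice 1 and 2 and Sox4-MKO mice 1 and 2, a ratio that varied far less than Rpl3l itself. Relative to Acta1, skeletal muscle actin, it was 1.62%, 2.19%, 1.54% and 2.18% in the same order. Relative to Ckm, another of the 12 muscle genes, it was less even, at 3.67%, 4.27%, 3.96% and 7.15%. Eef1a2, the form of elongation factor eEF1A found in muscle and neurons, had 1.68 and 7.32 FPKM in Sox4f/f and 155 and 30.2 FPKM in the mice labelled Sox4-MKO (log2 fold change 3.89, SE 0.94, limma unadjusted p = 0.0108). The part of muscle RNA in the Rpl3l difference was not tested.

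Rpl22l1 (chr3:28805436-28807424, plus strand), the paralog of Rpl22, had 35.7 and 39.2 FPKM in Sox4f/f and 98.5 and 61.7 FPKM in the mice labelled Sox4-MKO. About 263, 258, 679 and 542 fragments lay behind these values. The genotypes did not overlap and the spread lay in the mutant-labelled mice. The means were 37.5 ± 2.45 and 80.1 ± 26.1 FPKM (SD, n = 2 mice each), a log2 fold change of 1.04 (SE 0.25, limma unadjusted p = 0.0103, adjusted p = 0.215). Rpl22 protein is known to repress the Rpl22l1 mRNA. Rpl22 had 290 and 279 FPKM in Sox4f/f and 234 and 255 FPKM in the mice labelled Sox4-MKO, lower without overlap but not past the criterion (-0.22, limma unadjusted p = 0.113). Rpl22l1 was thus 12.3% and 14.0% of Rpl22 in Sox4f/f and 42.1% and 24.2% in the mice labelled Sox4-MKO. Its log2 fold change was positive in every alternative tried, from 0.71 to 1.37, and the call was lost when either Sox4f/f mouse was left out (unadjusted p = 0.0745 and 0.0555). Like Rpl3l and the muscle sum it was highest in Sox4-MKO mouse 1, and the part of muscle, macrophage or fibroblast RNA in it was not tested.

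The other 5 paralogs did not pass the criterion. Rpl39l, which is most active in testis, had 0.91 and 2.34 against 3.04 and 2.90 FPKM (0.65, limma unadjusted p = 0.108) on an estimated 8, 19, 26 and 32 fragments. Its core gene Rpl39 differed by 0.02 on the log2 scale, with 152 and 137 against 144 and 149 FPKM. Rps4l had 26.1 and 32.2 against 21.6 and 52.5 FPKM, and its 2 mutant-labelled values lay on both sides of the Sox4f/f values. Rpl36al had 145 and 146 against 154 and 153 FPKM (0.08), and its core gene Rpl36a 266 and 242 against 240 and 255 FPKM (-0.04, positive under both rescalings and median ratio scaling). Rps27l, a p53 target, had 202 and 187 against 192 and 157 FPKM (-0.16, and 0.05 when rescaled without the members), and its core gene Rps27 had 867 and 633 against 652 and 726 FPKM (-0.11, and 0.11 under quantile normalization). Rpl7l1 had 30.3 and 31.4 against 23.4 and 26.8 FPKM, without overlap (-0.29, limma unadjusted p = 0.0822), where Rpl7 had 275 and 255 against 255 and 275 FPKM. Such near copies can share fragments with their core genes, and how the authors' counting split them is uncertain.

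Further ribosome genes fall outside the name rule. Fau, which encodes a ubiquitin-like protein fused to Rps30, had 351 and 318 FPKM in Sox4f/f and 294 and 287 FPKM in the mice labelled Sox4-MKO (-0.20, limma unadjusted p = 0.148). Rack1, a scaffold protein on the small subunit, differed by -0.12 and Rps3a1 by -0.05 on the log2 scale, and all of these lay within the range of the core genes.

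The genes that build, regulate and use the ribosome were read from lists by the same call. Of all tested genes, 8.28% were lower and 7.95% higher by that call. Of 78 mitochondrial ribosomal protein genes, whose products form the separate ribosome inside mitochondria, 21 had lower and 0 higher values, with a median of -0.22, against the 7 of 83 of the cytosolic set. Mrpl4 had the smallest unadjusted p among them, with 103 and 96.0 against 65.8 and 60.1 FPKM (-0.65, limma unadjusted p = 0.00346). Of 61 ribosome biogenesis genes 6 were lower and 0 higher (median -0.25), a share of lower calls close to that of all genes. Ppan, a large subunit assembly factor, had the smallest unadjusted p among them. It had 14.2 and 15.9 against 7.74 and 8.79 FPKM (-0.79, limma unadjusted p = 0.00409). The nucleolar chaperone Npm1 had 48.5 and 45.7 against 54.1 and 52.5 FPKM (0.18). Of 14 genes of RNA polymerase I and rRNA transcription 5 were lower (median -0.20), among them Ubtf, which binds the rRNA gene promoter, with 30.7 and 29.1 against 19.2 and 20.1 FPKM (-0.58, limma unadjusted p = 0.00589). Over all the related lists, translation factors included, the 37 lower calls became 6 when rescaled without the members.

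**Figure D4:**
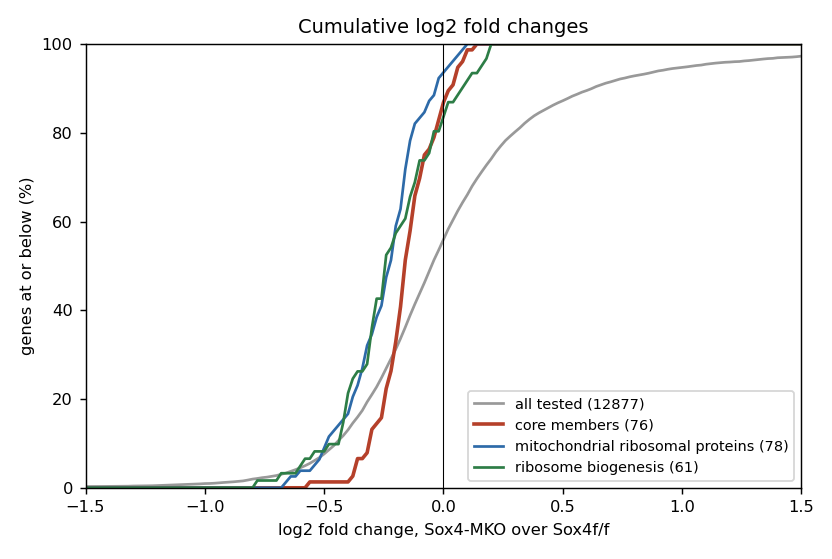
Percent of genes at or below each log2 fold change, mice labelled Sox4-MKO over Sox4f/f, for the 76 core genes, 78 mitochondrial ribosomal protein genes, 61 ribosome biogenesis genes and all 12877 tested genes. The core genes form a steep curve around their median of -0.17, beside medians of -0.22 (mitochondrial) and -0.25 (biogenesis), before any rescaling, and the core and biogenesis curves cross in their upper part.

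Translation factors were less uniform, and their counts stand beside the same 8.28% lower and 7.95% higher among all tested genes. Of 39 initiation factor genes 4 were lower (median -0.08), with Eif1ax at 35.0 and 36.7 against 26.4 and 21.7 FPKM (-0.56, limma unadjusted p = 0.0144). Of 11 elongation genes Eef1a2 alone passed, upwards, and Eef2, which moves the ribosome along the mRNA, had 549 and 466 against 419 and 424 FPKM (-0.26, limma unadjusted p = 0.108). None of the 7 termination and recycling genes (median -0.003) or the 16 nascent chain genes (median 0.07) passed in limma at an unadjusted p under 0.05. Of 19 genes of growth control 1 was lower, the mTOR inhibitor Tsc2, with 36.7 and 39.0 against 31.0 and 27.6 FPKM (-0.36, limma unadjusted p = 0.0403).

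**Figure D5:**
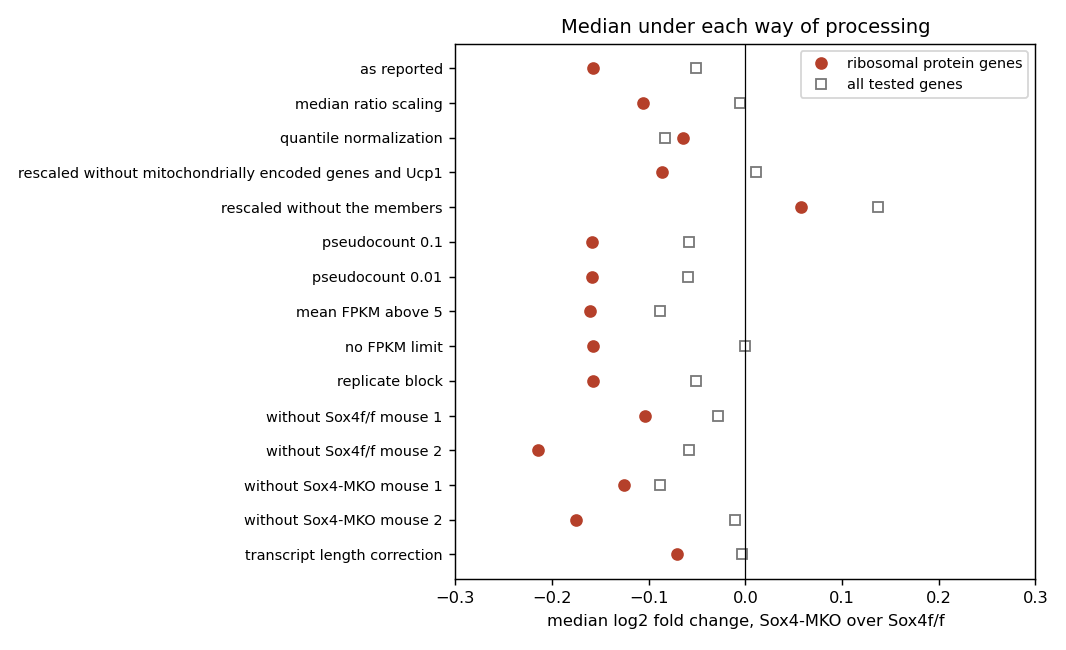
Median log2 fold change, mice labelled Sox4-MKO over Sox4f/f, of the 83 members (filled circles) and of all tested genes (open squares) under each way of processing. The members' median lies between -0.21 and -0.07 except when rescaled without the members, where it is 0.06 and that of all genes 0.14.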

How the data were processed

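The authors deposited 1 FPKM value per gene and library. Per the submitters' processing notes these came from Cufflinks 2.1.1 and Cuffdiff on mm10. The labels describe a column kit and a stranded mRNA library, the methods TRIzol and TruSeq. Counts were not used here. FPKM can move for every gene when a few abundant RNAs differ between libraries, and short mRNAs are sensitive to the effective length used.

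Groups were taken from the sample labels. limma 3.58.1 in R 4.3.3 compared the genotypes on log2(FPKM + 1), with no other covariate and with a trended prior, over the 12877 genes with a mean above 1 FPKM in at least 1 genotype, with Benjamini-Hochberg adjustment over all of them. Fold changes on this scale understate those of low genes. p-values are two-sided and calls use an unadjusted p under 0.05. Lengths and coordinates are from GENCODE M21 (GRCm38), with 98.7% of tested genes matched. Promoters are from RefSeq.

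The members and the gene lists were chosen with earlier results of these data known. Genes were named by rule: the 5 members with the largest change in each direction that passed without overlap, the paralogs with their core genes, the stalk proteins and a short list of members with known other roles, the 3 highest and 3 lowest members, Sox4, and the gene of each related list with the smallest p in a direction. Rpl4, Rpl10, Rps15, Rps24, Rpl19 and Rps4l were named after their values were seen.

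Alternatives were median ratio scaling, quantile normalization, totals set equal without the members or without Ucp1 and the mitochondrially encoded genes, pseudocounts of 0.1 and 0.01, FPKM limits of 5 or none, a replicate block, each library left out, and a loess correction for transcript length. The fit was tested on simulated data, with 200 of 12877 genes shifted by a log2 difference of 1. It recovered 86.5% of these at an unadjusted p under 0.05, with 5.33% of unchanged genes called, and 0% after adjustment. Depth is approximate, since the effective lengths the authors used are unknown. The estimate also gave 2 to 5 different solutions per library, depending on its starting value, and their median was kept. The fragment counts given for Rpl3l, Rpl22l1 and Rpl39l rest on it. Some genes are not reported here by name.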

Additional observations from a re-analysis of the deposited data

How the results depend on the processing

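The members' negative median depended on how libraries were scaled. It was -0.158 as reported and -0.065 under quantile normalization, where the median of all genes was -0.083. It was -0.086 when rescaled without mitochondrially encoded genes and Ucp1 (all genes 0.011) and -0.071 with the transcript length correction. Rescaled without the members it was 0.058, where the median of all genes turned to 0.137. For large and small subunit genes in these 4 settings it was -0.079 and -0.061, -0.086 and -0.084, -0.088 and -0.07, and 0.058 and 0.061. The 7 lower calls became 1 with median ratio scaling, 3 with no FPKM limit and 0 under quantile normalization, either rescaling and the length correction. The 2 higher calls became 5 when rescaled without the members. Lower calls over all tested genes, 1066 as reported, numbered 860 with median ratio scaling and 1145 under quantile normalization. They numbered 746 without mitochondrially encoded genes and Ucp1, and 1258 with no FPKM limit, where more genes were tested. Members lower without overlap (52) numbered 18 under quantile normalization and 23 without mitochondrially encoded genes and Ucp1. They numbered 7 without the members and 25 with the length correction. Those higher (6) numbered 34 without the members and 11 with the length correction. The shares of all tested genes without overlap in these settings are not given, so these counts do not set the members apart. Log2 fold changes under 0 (68) numbered 22 without the members. The difference of the members' share of summed FPKM, Sox4-MKO minus Sox4f/f, was 0.194 percentage points as reported and turned to -0.393 without mitochondrially encoded genes and Ucp1. The related translation and ribosome lists together, outside the members (37 lower and 1 higher calls, median -0.172), gave 24 lower calls with median ratio scaling, 21 lower and 3 higher without mitochondrially encoded genes and Ucp1 (median -0.102), 6 lower and 11 higher without the members (median 0.036), and 24 lower and 2 higher with the length correction. Over all tested genes, 327 were lower and 1907 higher when rescaled without the members. Rescaling acts on every gene alike; why the summed FPKM differed was not tested.

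Leaving out a library gave 0 to 6 lower and 0 to 3 higher member calls, 52 to 68 members lower and 7 to 16 higher without overlap, 60 to 72 log2 fold changes under 0, and medians of -0.214 to -0.104 (members), -0.207 to -0.087 (large), -0.217 to -0.104 (small) and -0.205 to -0.108 (related lists, 7 to 29 lower and 0 to 4 higher calls). All tested genes had 380 to 1015 lower and 433 to 1443 higher calls. A member whose genotypes did not overlap over all libraries cannot overlap after a library is removed. The counts without overlap could therefore only stay at or rise above 52 (lower) and 6 (higher), and they do not test stability. The share of all tested genes without overlap after the same removal is not given. No lower member call was left without either Sox4f/f mouse. Without Sox4-MKO mouse 1 there were 3 lower calls, 2 of them among the 7, and without Sox4-MKO mouse 2 there were 6, 3 of them among the 7.

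A replicate block gave 0 lower member calls, and 24 lower and 2 higher in the related lists. Over all tested genes it gave 938 lower and 970 higher calls. The numbers are not stated to pair the mice. The correlation of same-numbered deviations was -0.012 over all tested genes and -0.543 over the members.

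Small negative values of named members changed sign in some settings: with median ratio scaling Rpl36a 0.016, Rpl5 0.016 and Rps27a 0.013; under quantile normalization Rpl5 0.034, Rplp1 0.119, Rps27 0.114 and Rps27a 0.037; without mitochondrially encoded genes and Ucp1 Rpl36a 0.036, Rpl5 0.036 and Rps27a 0.033; with the length correction Rpl36a 0.06, Rpl5 0.007, Rps27 0.001 and Rps27a 0.035. Rescaled without the members, values turned to 0.028 (Rpl11), 0.047 (Rpl3), 0.181 (Rpl36a and Rpl5), 0.039 (Rplp0), 0.105 (Rplp1), 0.11 (Rps27), 0.178 (Rps27a), 0.053 (Rps27l), 0.095 (Rps6) and 0.021 (Rpsa). With a library left out the values ranged from -0.41 to 0.071 (Rpl3), -0.104 to 0.031 (Rpl36a), -0.214 to 0.143 (Rpl5), -0.334 to 0.12 (Rps27), -0.135 to 0.057 (Rps27a), -0.257 to 0.013 (Rps6), -0.047 to 0.098 (Rpl39), -0.052 to 0.058 (Rpl7), -0.009 to 0.135 (Rps4x) and -0.408 to 0.833 (Rps4l). Rpl39l had no value at a limit of 5 FPKM.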
